A study of Mus musculus with 6 samples.

Results

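The 10 genes described here are interferon-induced effectors that act directly against viruses or in the ISG15 pathway: Isg15, Usp18, Herc6, Rsad2, Cmpk2, Ifitm2, Ifitm3, Bst2, Mx1 and Mx2. They were chosen by name, outside the IFIT, OAS, GBP and IRG families, but with earlier results of these data known. All 10 were found among the 54532 genes of the count table. Each of the 10 passed the filter on low counts, which 14174 genes passed in all. RNA-seq counts came from 6 libraries of cultured mouse cells. The labels call them dendritic cells, the cell type that captures antigens and shows them to T cells, whereas the study writes of DB2313-treated macrophages. A control group of 3 libraries was not treated with DB2313, with no word on a vehicle in the labels, and the other group of 3 libraries received DB2313, a small molecule that the study uses as an inhibitor of Spi1 (PU.1), a transcription factor of myeloid cells. No genotype, strain, age, dose or time of treatment was given in the labels. The methods of the study give a dose of DB2313 for macrophages but do not tie it to these libraries. No source said whether the libraries of a group came from separate cultures or animals. The p-values below therefore set the difference between the groups against the spread between these libraries, which may be technical. The treated columns carried the name of Spi1 and the control columns an abbreviation usual for dendritic cells grown from bone marrow, so every direction rests on reading the Spi1 columns as the DB2313 libraries.

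Type I interferons are secreted proteins that bind the receptor made of Ifnar1 and Ifnar2. The kinases on that receptor activate transcription factors, among them Stat2, which joins Irf9 to bind interferon-stimulated response elements before the genes they switch on. The products of these genes block viruses at entry, replication and release, and some of them, such as Usp18, restrain the receptor again. Dendritic cells both make and answer type I interferon, and Irf7 raises its production.

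Promoter sequences in RefSeq (GRCm38.p6) were found for 7 of the 10 genes, namely Isg15, Herc6, Rsad2, Cmpk2, Ifitm2, Ifitm3 and Bst2. The sequences below show the 3 genes with the largest increase (Isg15, Rsad2 and Cmpk2) and a pair of genes that carry the interferon motif but did not pass the test (Bst2 and Ifitm2). Each runs 5′ to 3′ on the strand of the gene, from base -150 to base -31 before the RefSeq start, and is 120 bases long. Relative to the gene start in the coordinates given below, the RefSeq start was shifted downstream by 26 bases (Ifitm2, Ifitm3), 11 (Cmpk2), -8 (Herc6) and -16 (Bst2). The shift was 0 for Isg15 and Rsad2. Capitals mark the letters AAANNGAAA, a short core of the interferon-stimulated response element, on either strand.
Isg15: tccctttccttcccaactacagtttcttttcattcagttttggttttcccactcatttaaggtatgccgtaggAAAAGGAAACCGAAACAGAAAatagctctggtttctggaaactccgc
Rsad2: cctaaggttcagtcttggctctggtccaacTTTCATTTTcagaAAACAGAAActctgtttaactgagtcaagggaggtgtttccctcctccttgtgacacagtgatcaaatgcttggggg
Cmpk2: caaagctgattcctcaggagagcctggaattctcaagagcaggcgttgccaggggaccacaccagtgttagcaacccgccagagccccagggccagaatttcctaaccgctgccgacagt
Bst2: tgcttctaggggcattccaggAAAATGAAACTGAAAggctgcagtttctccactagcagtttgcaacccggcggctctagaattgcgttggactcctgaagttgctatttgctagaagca
Ifitm2: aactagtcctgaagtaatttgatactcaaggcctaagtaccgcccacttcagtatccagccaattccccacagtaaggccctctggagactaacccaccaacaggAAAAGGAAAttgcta

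The stretches lie on the minus strand at chr4:156200849-156200968 (Isg15), chr12:26456483-26456602 (Rsad2), chr8:71537503-71537622 (Bst2) and chr7:140955992-140956111 (Ifitm2), and on the plus strand at chr12:26469065-26469184 (Cmpk2). The longer core GAAANNGAAA was searched on both strands in windows from 250 bases before to 50 bases after the start. It was found in 5 of the 7 promoters (Isg15, Rsad2, Bst2, Ifitm2 and Ifitm3) and in 3.44% of all 32851 promoters in the table. In Isg15 it occurred 3 times in overlapping copies from base -78 to base -57, and in Bst2 it occurred 2 times from base -130 to base -115. The matches of Ifitm3 lay just after the RefSeq start, and the windows of Cmpk2 and Herc6 held none. The shorter core AAANNGAAA overlaps the longer one, occurs in 10.6% of all promoters and was found in the same 5 genes. It was chosen after the sequences had been seen. A composite core for PU.1 with an interferon regulatory factor, GGAANNGAAA (2.72% of all promoters), and the PU.1-type core GAGGAAG (13.6%) were found in 0 of the 7. Genes with the motif stood both among those that rose (Isg15, Rsad2, Ifitm3) and among those that did not pass (Bst2, Ifitm2), and Cmpk2 rose without it in this window.

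With DB2313, 4 of the 10 genes rose and 6 did not pass the test. Isg15, Rsad2 and Cmpk2 rose by 1.60-fold to 1.68-fold, and Ifitm3 rose by 1.18-fold. Usp18, which removes ISG15 from proteins, was lower in every DB2313 library but narrowly missed the threshold. Bst2, Ifitm2, Herc6, Mx1 and Mx2 overlapped between the groups. A gene was called at an adjusted p under 0.05 in edgeR's quasi-likelihood test, with Benjamini-Hochberg adjustment over all 14174 genes tested. By this rule 4.66% of all tested genes were higher and 5.94% were lower. No member was called lower by edgeR, DESeq2 or limma-voom (0 each). At an unadjusted edgeR p under 0.05, 1 of the 10, Usp18, was lower and 4 were higher. That threshold was passed by 3309 of all 14174 tested genes, in either direction. All DB2313 libraries lay above all control libraries for 4 of the 10 genes and for 12.9% of all tested genes. They lay below for 1 of the 10 and for 14.5% of all tested genes. The median log2 fold change was 0.061 over the 10 genes and 8.2e-04 over all tested genes. The median of the 10 genes was not stable: it was 9.2e-04 with an offset for gene length, -0.0077 without DB2313 replicate 1 and 0.13 without DB2313 replicate 3. In bulk RNA, fewer cells of a type and less RNA per cell cannot be told apart.

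**Figure D1:**
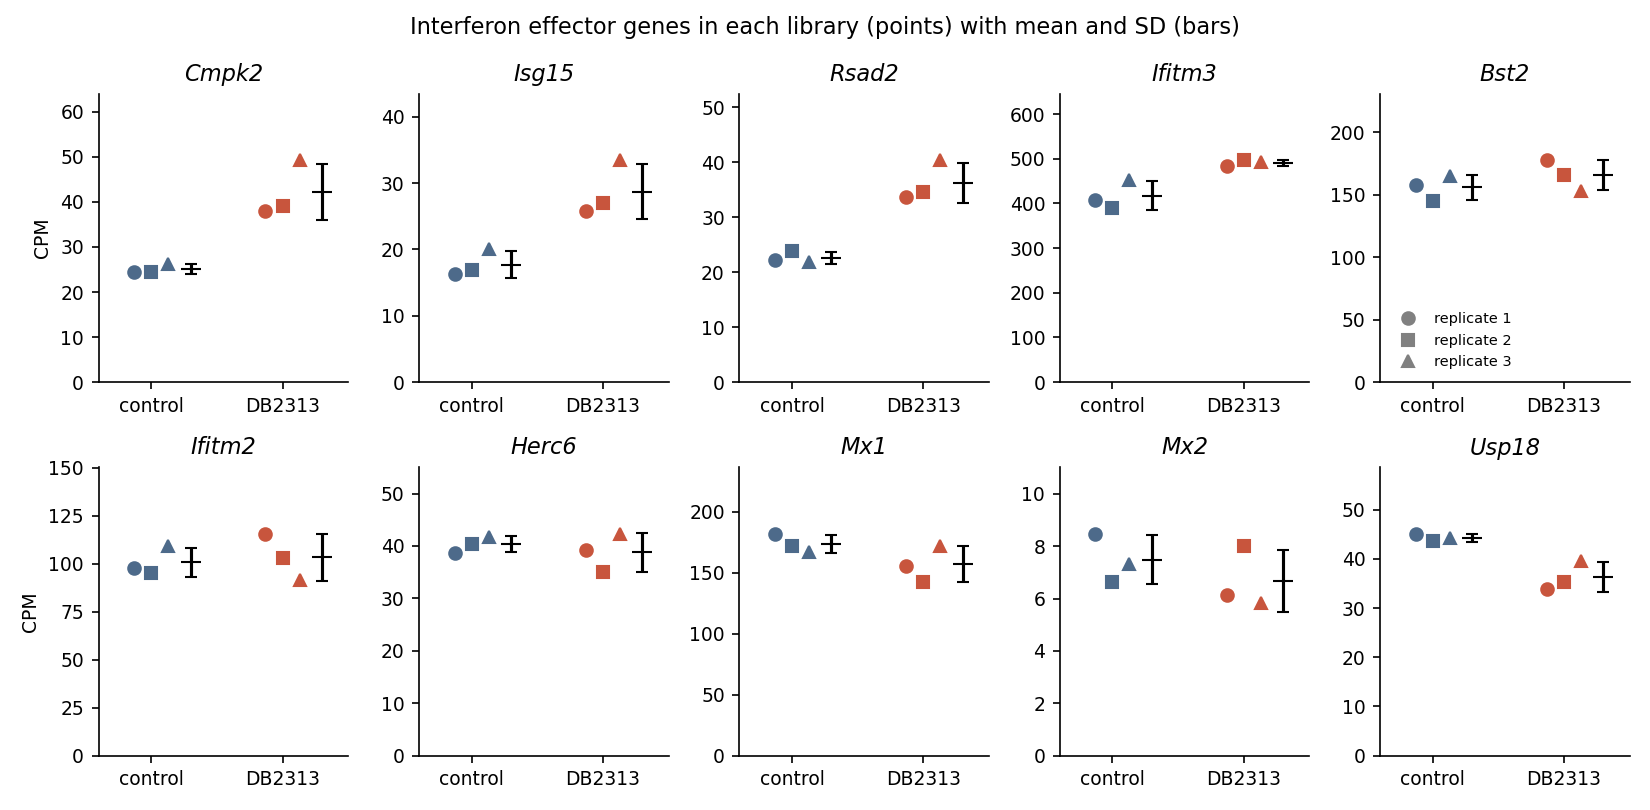
Level of the 10 genes in CPM (vertical axis, from 0) in each control and DB2313 library, with the marker shape giving the replicate number and the bars giving the mean and SD of 3 libraries. The groups are apart and DB2313 is above for Cmpk2, Isg15, Rsad2 and Ifitm3, whereas DB2313 is below for Usp18 and the other 5 genes overlap.

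ISG15 is a ubiquitin-like protein that is attached to other proteins and also secreted. Isg15 (ENSMUSG00000035692, chr4:156199424-156200818, minus strand) was measured at 16.2, 16.9 and 20.0 CPM in control replicates 1 to 3 and at 25.8, 26.9 and 33.5 CPM in DB2313 replicates 1 to 3. CPM is the read count of a gene scaled to a common library size, and the raw counts behind these values ran from 264 to 557. Every DB2313 library exceeded every control library, and DB2313 replicate 3 was the highest. The mean rose from 17.7 ± 2.02 to 28.7 ± 4.14 CPM (SD, n = 3 each). On the log2 scale the change was 0.70 ± 0.13 (SE), a 1.62-fold increase with a 95% interval of 1.35-fold to 1.95-fold and an edgeR adjusted p of 0.00212. A processed pseudogene shares 482 bp with Isg15 and had at most 5 counts in a library.

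Usp18, the protease that takes ISG15 off its targets and blocks signaling at Ifnar2, was among the genes below the control level. Usp18 (ENSMUSG00000030107, chr6:121245906-121270917, plus strand) stood at 45.1, 43.5 and 44.2 CPM in control and at 33.9, 35.4 and 39.7 CPM with DB2313. The control libraries lay close together and all 3 DB2313 libraries lay under them, with replicate 3 the nearest. The change was -0.29 ± 0.09 on the log2 scale (SE), with a 95% interval of -0.48 to -0.095, an unadjusted p of 0.00606 and an edgeR adjusted p of 0.0548. Usp18 passed as lower without DB2313 replicate 3 (-0.35, edgeR adjusted p = 0.0125) and with an offset for gene length (-0.31, edgeR adjusted p = 0.0289). A noncoding transcript shares 126 bp at 100% identity with Usp18 and had at most 6 counts in a library.

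Herc6, the main ligase that attaches ISG15 to proteins in the mouse, overlapped between the groups. Herc6 (ENSMUSG00000029798, chr6:57581000-57664632, plus strand) was found at 38.7, 40.5 and 41.8 CPM in control and at 39.2, 35.0 and 42.4 CPM with DB2313. The DB2313 libraries held both the lowest and the highest of the 6 values. The log2 fold change was -0.056 ± 0.09 (SE), with a 95% interval of -0.26 to 0.14 and an edgeR adjusted p of 0.784, and its sign turned with an offset for gene length (0.0047). Herc6 shares 688 bp at 100% identity with Gm45193, which had 0 counts in every library, and stretches of 101 to 162 bp with many other transcripts. The 0 counts of Gm45193 do not show whether reads of the shared stretch were lost to Herc6.

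The other enzymes of ISG15 attachment were Uba7, the activating enzyme, Ube2l6, the conjugating enzyme, and Trim25, a further ligase, and 2 of these 3 rose. Ube2l6 stood at 98.0, 95.9 and 104 CPM in control and at 212, 218 and 184 CPM with DB2313. Every DB2313 library was well above the control range, and replicate 3 was the lowest of them. This was a change of 1.04 ± 0.08 on the log2 scale (SE, edgeR adjusted p = 1.3e-06). Trim25 had a log2 fold change of 0.25 ± 0.07 (SE, edgeR adjusted p = 0.0324). Uba7 overlapped between the groups, at 113 to 120 CPM in control and 112 to 134 CPM with DB2313, with a log2 fold change of 0.05 ± 0.08 (SE, edgeR adjusted p = 0.772). Of the 6 genes of ISG15 attachment and removal, Isg15, Ube2l6 and Trim25 thus rose, and Uba7, Herc6 and Usp18 did not pass. The share called higher over all tested genes was 4.66%.

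Ratios of read counts within a library were taken for pairs chosen after the values had been seen. The ratio of Isg15 to Usp18 reads ran from 0.360 to 0.452 in control and from 0.760 to 0.844 with DB2313. For Isg15 to Herc6 it was 0.417 to 0.479 in control and 0.659 to 0.790 with DB2313. Ube2l6 to Uba7 gave 0.836 to 0.871 in control and 1.37 to 1.91 with DB2313. These 3 ratios did not overlap between the groups, and they do not depend on the scaling of the libraries. With 3 libraries a group, p was 0.1 for each by an exact permutation test (two-sided), which is the smallest value possible. For Isg15 to Usp18 this outcome was fixed, as every DB2313 library was above control for Isg15 and below it for Usp18. The ratios restate the values of the single genes and add no support to them.

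Rsad2 and Cmpk2 lie with their starts facing each other on chromosome 12. Rsad2 encodes viperin, which turns CTP into a chain terminator of viral RNA synthesis, and Cmpk2 encodes a mitochondrial nucleotide kinase that supplies CTP and other nucleotides. Rsad2 (ENSMUSG00000020641, chr12:26442746-26456452, minus strand) was measured at 22.1, 23.8 and 21.8 CPM in control and at 33.7, 34.5 and 40.4 CPM with DB2313. Cmpk2 (ENSMUSG00000020638, chr12:26469204-26479837, plus strand) stood at 24.5, 24.3 and 26.3 CPM in control and at 38.0, 39.1 and 49.3 CPM with DB2313. For both genes the groups were apart and DB2313 replicate 3 was the highest library. Rsad2 rose from 22.6 ± 1.05 to 36.2 ± 3.65 CPM (SD, n = 3 each), a log2 fold change of 0.68 ± 0.10 (SE, edgeR adjusted p = 5.7e-04). Cmpk2 rose from 25.0 ± 1.09 to 42.1 ± 6.22 CPM (SD, n = 3 each), a log2 fold change of 0.75 ± 0.11 (SE, edgeR adjusted p = 4.4e-04). The 95% intervals were 1.38-fold to 1.87-fold for Rsad2 and 1.43-fold to 1.98-fold for Cmpk2. The ratio of Cmpk2 to Rsad2 reads, 1.02 to 1.20 in control and 1.13 to 1.22 with DB2313, overlapped between the groups (p = 0.4, exact two-sided permutation test). This pair was also chosen after the values had been seen.

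The IFITM proteins sit in endosomal and plasma membranes and hinder the fusion of viral and cellular membranes. Ifitm3 (ENSMUSG00000025492, chr7:141009586-141010770, minus strand) was found at 408, 390 and 453 CPM in control and at 484, 497 and 492 CPM with DB2313. The DB2313 libraries lay close together, above the wider control range. The mean rose from 417 ± 32.8 to 491 ± 6.25 CPM (SD, n = 3 each), with a log2 fold change of 0.24 ± 0.07 (SE), a 95% interval of 0.085 to 0.39 and an edgeR adjusted p of 0.0453. This call was the least firm of the 4 that were made. It was lost without control replicate 1, control replicate 2 or DB2313 replicate 2 (edgeR adjusted p = 0.168, 0.219 and 0.192), and with an offset for gene length the log2 fold change was 0.14 (edgeR adjusted p = 0.199). It was also lost with the replicate number as a block, alone (0.24, edgeR adjusted p = 0.120) or with that offset (0.13, edgeR adjusted p = 0.291).

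Ifitm2 (ENSMUSG00000060591, chr7:140954837-140955987, minus strand), close to Ifitm3 in the same gene cluster, stood at 97.6, 95.3 and 109 CPM in control and at 116, 103 and 91.3 CPM with DB2313. The DB2313 libraries spread over both sides of the control range. Its log2 fold change of 0.036 ± 0.09 (SE) had a 95% interval of -0.16 to 0.23 and an edgeR adjusted p of 0.867, and its sign turned with the offset for gene length (-0.073). The ratio of Ifitm3 to Ifitm2 reads was 4.09 to 4.18 in control and 4.19 to 5.39 with DB2313, so the ranges nearly touched (p = 0.1, exact two-sided permutation test, the smallest it can give). This pair, too, was chosen after the values had been seen, and its ratio adds no support to the values of the single genes. Pseudogenes and a gene that share 292 to 432 bp with Ifitm2 had at most 3 counts in a library.

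Of the 5 other IFITM genes, 3 were tested and 1 rose, beside 4.66% of all tested genes. Ifitm6 was measured at 32.2, 32.7 and 35.7 CPM in control and at 52.6, 54.7 and 48.2 CPM with DB2313. All DB2313 libraries exceeded the control range, a log2 fold change of 0.63 ± 0.09 (SE, edgeR adjusted p = 3.4e-04). Ifitm1 had a log2 fold change of 0.21 ± 0.07 (SE), which did not pass (edgeR adjusted p = 0.0883). Its groups did not overlap, with DB2313 above, as for 12.9% of all tested genes.

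Bst2 encodes tetherin, which holds budding virus particles at the cell surface and also marks plasmacytoid dendritic cells. Bst2 (ENSMUSG00000046718, chr8:71534255-71537456, minus strand) was found at 158, 145 and 165 CPM in control and at 178, 166 and 153 CPM with DB2313. The ranges overlapped, and DB2313 replicate 3 was the lowest treated library. The log2 fold change was 0.087 ± 0.08 (SE), with a 95% interval of -0.080 to 0.25 and an edgeR adjusted p of 0.565, and its sign turned with the offset for gene length (-0.0028). Markers of plasmacytoid dendritic cells were at low levels. Of that list of 7 genes, 3 were tested and 0 were called, the summed level was 38.1 to 46.4 CPM in control and 34.7 to 43.1 CPM with DB2313, and Klk1 was at 0 in every library.

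The Mx proteins are dynamin-like and, where functional, trap viral components in the nucleus or the cytoplasm. Only the RNA of Mx1 and Mx2 was measured here, and the strain was not given. Mx1 (ENSMUSG00000000386, chr16:97447035-97462907, minus strand) stood at 182, 172 and 167 CPM in control and at 156, 143 and 172 CPM with DB2313. DB2313 replicates 1 and 2 were under the control range and replicate 3 was inside it. The log2 fold change, -0.15 ± 0.08 (SE), had a 95% interval of -0.32 to 0.020 and an edgeR adjusted p of 0.283. Mx1 passed as lower when DB2313 replicate 3 was left out (-0.22 on the log2 scale, edgeR adjusted p = 0.0403).

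Mx2 (ENSMUSG00000023341, chr16:97535308-97560900, plus strand) is annotated as a polymorphic pseudogene. It was the least expressed of the 10 genes, at 8.48, 6.65 and 7.34 CPM in control and at 6.13, 8.02 and 5.83 CPM with DB2313, from 97 to 160 raw counts. The groups overlapped, with a log2 fold change of -0.16 ± 0.19 (SE), a 95% interval of -0.56 to 0.24 and an edgeR adjusted p of 0.665. Mx1 and Mx2 share a stretch of 843 bp at 95.25% identity, so reads may have been split between them, and the value of Mx2 in particular is uncertain. The ratio of Rsad2 to Mx1 reads was 0.122 to 0.138 in control and 0.216 to 0.242 with DB2313, with no overlap (p = 0.1, exact two-sided permutation test, the smallest it can give). Like the other pairs, it was chosen after the values had been seen. The ratio restates the values of Rsad2 and Mx1 and adds no support to them.

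**Figure D2:**
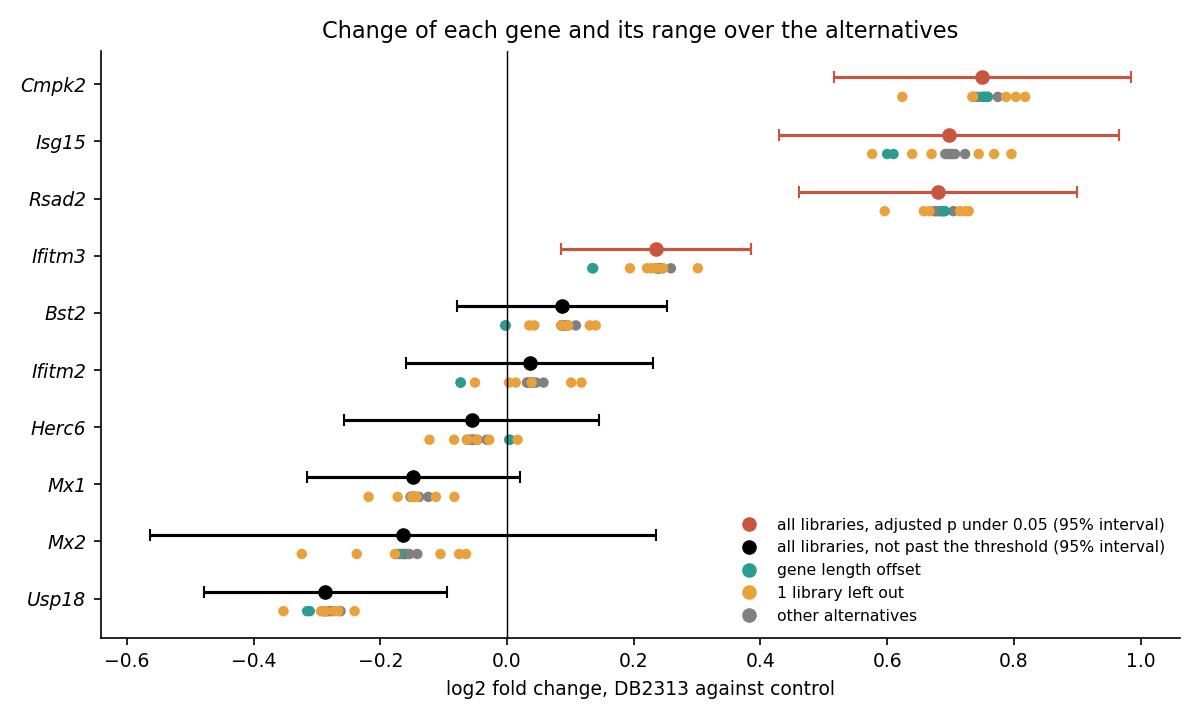
Log2 fold change of each gene (horizontal axis, DB2313 against control). The upper point and bar of each row give the value from all 6 libraries with its 95% interval, and the smaller points give the 15 alternatives. The points of Cmpk2, Isg15 and Rsad2 all lie between 0.58 and 0.82, those of Ifitm3 between 0.13 and 0.30, those of Usp18 between -0.35 and -0.24, and those of Bst2, Ifitm2 and Herc6 on both sides of 0.

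The treated libraries did not move together over the 10 genes. Relative to the control mean, DB2313 replicate 3 was the highest treated library for Isg15, Rsad2, Cmpk2, Usp18, Mx1 and Herc6, and the lowest for Bst2, Ifitm2 and Mx2. On the log2 scale it stood above the control mean by 0.92 for Isg15, 0.84 for Rsad2 and 0.98 for Cmpk2, whereas DB2313 replicate 1 stood above it by 0.54, 0.58 and 0.60. Over all genes, chi-square per degree of freedom was 5.02 to 5.55 between pairs of control libraries, and 7.99 to 19.4 between pairs of DB2313 libraries, with replicates 1 and 3 the most distant. Without DB2313 replicate 3 the log2 fold changes of Isg15, Rsad2 and Cmpk2 were 0.58, 0.60 and 0.62, and without replicate 1 they were 0.77, 0.73 and 0.82. All 3 genes passed in each of these fits.

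Levels between genes were compared per length, in RPKM, which is CPM divided by the gene length in kilobases. In control, Ifitm3 was the highest at 615 ± 48.4 RPKM, followed by Bst2 at 173 ± 11.2 and Ifitm2 at 154 ± 11.6 (SD, n = 3 each). The ranges of Bst2 and Ifitm2 overlapped in both groups. Below them, Mx1 stood at 45.9 ± 2.00, Isg15 at 23.4 ± 2.67 and Usp18 at 15.9 ± 0.287 RPKM. These 3 ranges did not overlap in control. The lowest were Cmpk2 at 6.01 ± 0.261, Rsad2 at 5.21 ± 0.241, Herc6 at 4.34 ± 0.164 and Mx2 at 2.07 ± 0.257 RPKM. The control ranges of these 4 genes were also apart. The order between genes rests on the deposited lengths, which may differ from the lengths of the transcripts expressed here. With DB2313, Isg15 at 34.1 to 44.3 RPKM overlapped Mx1 at 37.7 to 45.5 RPKM, and Cmpk2 at 9.13 to 11.8 RPKM overlapped Rsad2 at 7.77 to 9.31 RPKM. Ifitm3, Mx1, Bst2 and Ifitm2 held most reads of the 10 genes, and the summed level of all 10 was 957.5 to 1057 CPM in control and 1088 to 1119 CPM with DB2313.

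**Figure D3:**
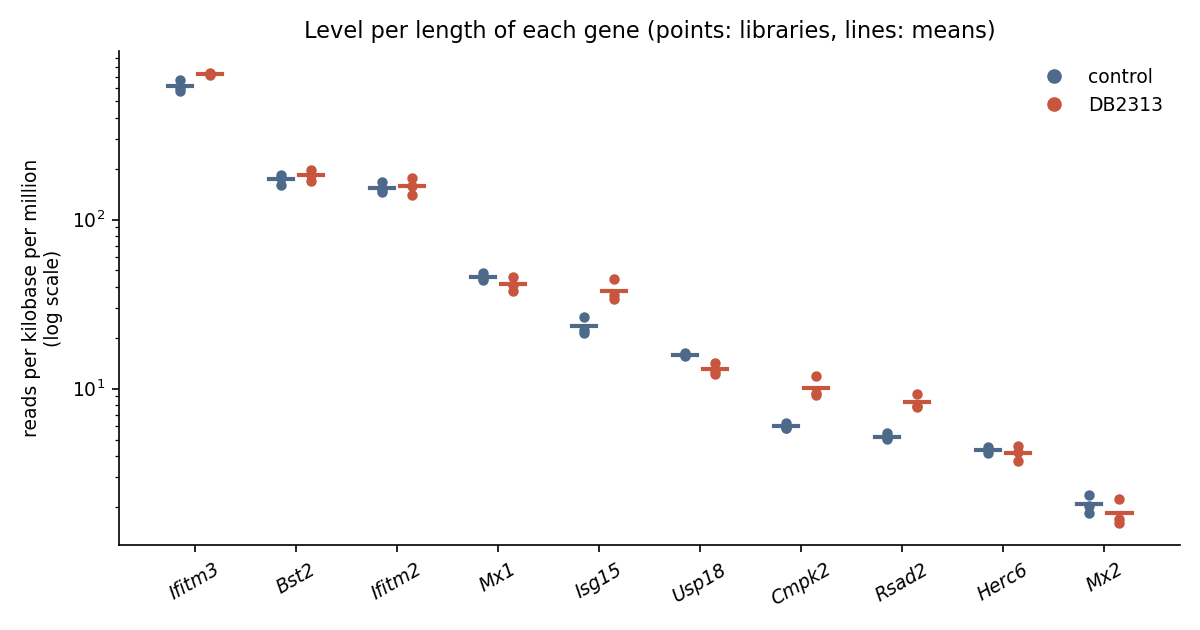
Level of the 10 genes in RPKM (vertical axis, log scale), with 1 point per library and a line at the mean of each group. Ifitm3 is the highest and Mx2 the lowest in both groups, and in the DB2313 libraries Isg15 reaches the range of Mx1.

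The other genes of the pathway were taken from lists by role. Of 98 such genes, 74 were tested, 15 rose and 6 fell, and their median log2 fold change was 0.043. The shares over all tested genes were 4.66% higher and 5.94% lower. Among 20 interferon ligands, 14 had no count in any library and only Ifng, the type II interferon, was tested. Ifng had 13, 18 and 26 counts in control and 13, 20 and 7 with DB2313, with a log2 fold change of -0.66 ± 0.47 (SE, edgeR adjusted p = 0.442). The type I ligands were at or near 0 in both groups. Ifnb1 had 3 counts in control replicate 2 and 0 in the other 5 libraries, and no untested ligand exceeded 3 counts, so a change in type I ligand RNA was not detectable at this depth.

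The 2 chains of the type I interferon receptor did not pass. Ifnar1 stood at 135, 135 and 141 CPM in control and at 114, 118 and 132 CPM with DB2313, with a log2 fold change of -0.18 ± 0.08 (SE, edgeR adjusted p = 0.164). Ifnar2 stood at 66.5, 67.4 and 64.9 CPM in control and at 74.1, 69.9 and 75.5 CPM with DB2313, with a log2 fold change of 0.14 ± 0.08 (SE, edgeR adjusted p = 0.287). The groups were apart for both chains, below control for Ifnar1 and above it for Ifnar2. This was also so for 14.5% (below) and 12.9% (above) of all tested genes. Of the 6 receptor genes, 1 rose and 1 fell, beside 4.66% and 5.94% of all tested genes. Ifngr1, the ligand-binding chain for interferon gamma, rose by 0.38 ± 0.07 on the log2 scale (SE, edgeR adjusted p = 0.00214). Ifnlr1, the specific chain of the interferon lambda receptor, fell by 0.80 ± 0.15 on the log2 scale (SE, edgeR adjusted p = 0.00268).

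Of 12 signal transducers and transcription factors, 2 rose and 3 fell, beside 4.66% and 5.94% of all tested genes. Irf7, the amplifier of type I interferon production, was at 41.4, 42.7 and 50.2 CPM in control and at 53.6, 56.4 and 69.9 CPM with DB2313. It was higher in every DB2313 library, by 0.42 ± 0.11 on the log2 scale (SE, edgeR adjusted p = 0.0218). Stat2 was at 107, 110 and 98.5 CPM in control and at 110, 124 and 151 CPM with DB2313, with a log2 fold change of 0.29 ± 0.10 (SE) that did not pass (edgeR adjusted p = 0.0808). Irf9, the DNA-binding partner of Stat2, overlapped between the groups (0.045 ± 0.07, SE, edgeR adjusted p = 0.771). Irf5, a factor downstream of Toll-like receptors, Jak2, a kinase of the interferon gamma receptor, and Irf2, a repressor of interferon genes, fell by 0.25 ± 0.07, 0.26 ± 0.07 and 0.24 ± 0.07 on the log2 scale (SE, edgeR adjusted p = 0.0243, 0.0272 and 0.0494).

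For the lists that follow, the shares over all tested genes were 4.66% higher and 5.94% lower. Of 14 nucleic acid sensors and adaptors, 1 rose. This was Mavs, the mitochondrial adaptor of the RNA sensors, at 0.35 ± 0.08 (log2 fold change, SE, edgeR adjusted p = 0.0102). Of 6 negative regulators, 1 fell, namely Ptpn1, a phosphatase that acts on Jak kinases, at -0.27 ± 0.07 (log2 fold change, SE, edgeR adjusted p = 0.0182). The list of 32 other interferon-induced effectors had 29 genes tested, with 8 higher and 1 lower and a median log2 fold change of 0.15. Its examples were Lgals9, which encodes the lectin galectin-9 (0.44 ± 0.07, SE, edgeR adjusted p = 0.00112), and Sp100 and Pml, both components of PML nuclear bodies (0.38 ± 0.07 and 0.41 ± 0.08, SE, edgeR adjusted p = 0.00223 and 0.00438). Ifi44 was the gene of this list that fell, from 6.33 to 7.07 CPM in control to 2.76 to 5.23 CPM with DB2313 (-0.89 ± 0.24, log2 fold change, SE, edgeR adjusted p = 0.0290).

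Both neighboring groups of interferon genes are given for comparison, with the same 6 libraries. The shares over all tested genes were 4.66% higher and 5.94% lower. In the IFIT and OAS families, which sense or bind viral RNA, 8 of 14 tested genes rose and 0 fell, with a median log2 fold change of 0.46. The unadjusted edgeR p was under 0.05 for 9 higher and 0 lower genes of these families, and for 3309 of all 14174 tested genes in either direction. Oasl1, Ifit3 and Ifit1 had log2 fold changes of 1.22 ± 0.11, 1.18 ± 0.13 and 1.03 ± 0.13 (SE, edgeR adjusted p = 4.7e-06, 4.9e-05 and 1.3e-04). Among the GBP and IRG GTPases, which attack vacuoles of intracellular microbes, 6 of 20 rose and 2 fell, with a median of 0.12. Irgm1, Igtp and Iigp1 rose (0.62 ± 0.08, 0.36 ± 0.08 and 0.62 ± 0.14, log2 fold change ± SE), whereas Gbp5 and Gbp2 fell (-0.39 ± 0.08 and -0.32 ± 0.07), with edgeR adjusted p from 1.2e-04 for Irgm1 to 0.00901 for Igtp and Iigp1. The differences between these groups and the 10 genes were not tested.

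**Figure D4:**
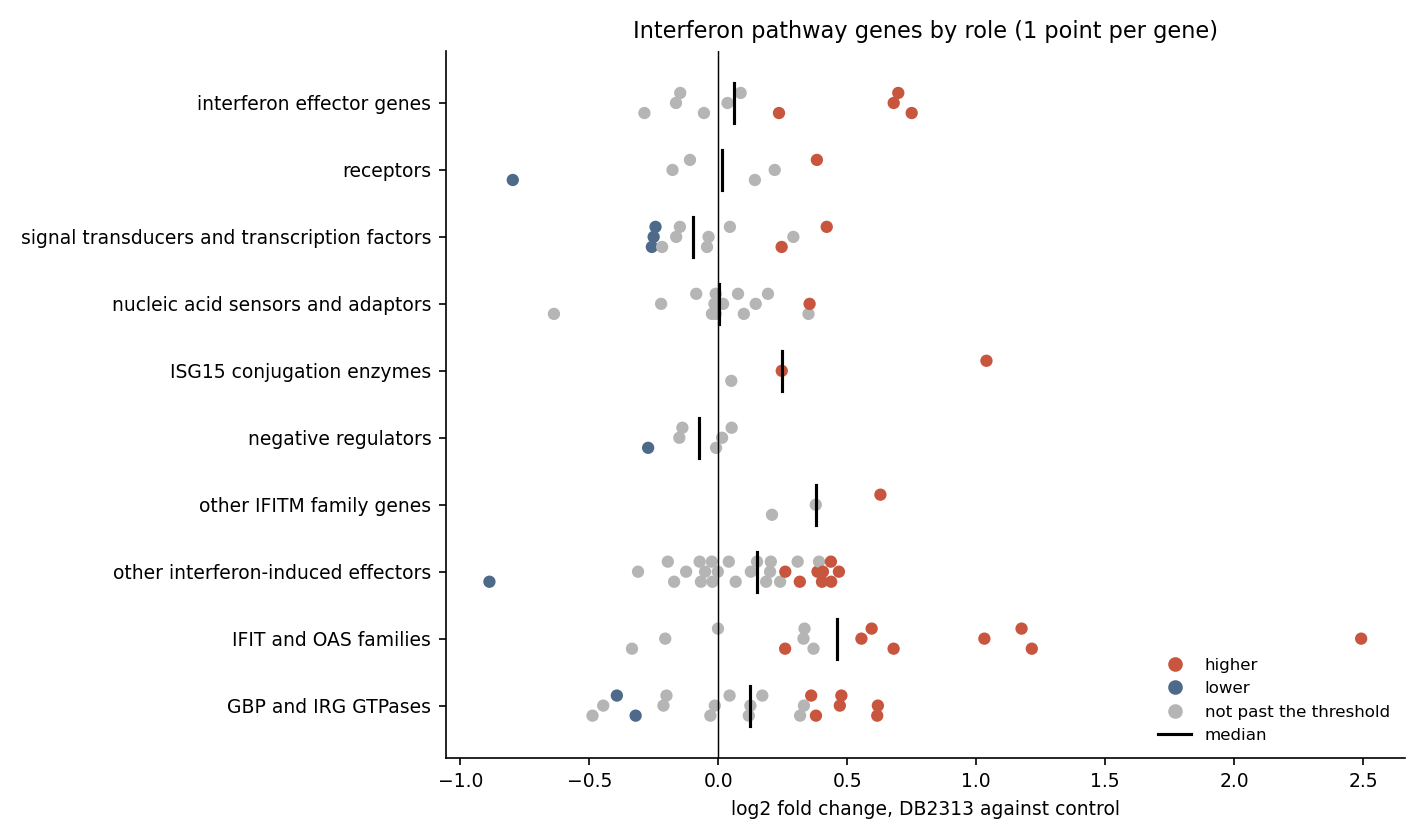
Log2 fold change (horizontal axis, DB2313 against control) of the tested genes of each role, with 1 point per gene, color for the call at an adjusted p under 0.05 and a black line at the median. The median is 0.061 for the 10 effector genes and 0.46 for the IFIT and OAS families, where the point at 2.49 is Ifit3b, a near-identical copy of Ifit3 whose reads may be split with it.

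Per the labels these were dendritic cells, the study itself wrote of macrophages, and the libraries held markers of several cell types. For each marker list below, the shares over all tested genes were 4.66% higher and 5.94% lower. Of 10 dendritic cell markers, all were tested, 0 rose and 1 fell (Itgax). The unadjusted edgeR p was under 0.05 for 6 lower and 0 higher of them, and for 3309 of all 14174 tested genes in either direction. The median log2 fold change of these markers was -0.19. Their summed level was 11416 to 11668 CPM in control and 9625 to 11219 CPM with DB2313. Cd74, H2-Eb1, Ccr7 and H2-Ab1 held most of this sum, at means of 6557, 1621, 1535 and 1310 CPM in control. Flt3 and Zbtb46 stood at means of 33.0 and 85.0 CPM in control. Sums of different lists therefore do not rank the cell types. Of 10 macrophage markers, 1 rose and 6 fell, with a summed level of 1599 to 1723 CPM in control and 1277 to 1536 CPM with DB2313. The 6 that fell included C1qa, C1qb and C1qc, which encode the subunits of complement C1q that the study is about (log2 fold changes of -0.97, -0.35 and -0.51 in the columns named for Spi1). Of 10 neutrophil markers, 3 rose (Elane, Ly6g and Retnlg) and 0 fell, and their summed level of 4421 to 4973 CPM in control overlapped that of 4487 to 5895 CPM with DB2313. Of 7 tested mast cell and basophil markers, 2 rose, at 2471 to 2670 CPM in control and 2513 to 3027 CPM with DB2313. Of 7 markers of type 1 conventional dendritic cells, 1 rose (Clec9a) and 1 fell (Batf3), at 505 to 542 CPM in control and 434 to 487 CPM with DB2313. Naaa, Wdfy4 and Batf3 held most of this sum, at means of 234, 172 and 106 CPM in control. Clec9a had only 10 to 17 counts in control and 42 to 72 with DB2313. Xcr1 and Cadm1 were also near the floor, at means of 1.04 and 0.48 CPM in control. No marker of T cells (7 tested), B cells (1 of 6 tested) or NK cells (2 of 3 tested) was called by edgeR, with 1 gene of each list higher at an unadjusted p under 0.05. Their summed levels were 143 to 173, 2.89 to 4.06 and 16.9 to 20.0 CPM in control and 148 to 212, 5.35 to 6.80 and 21.5 to 25.3 CPM with DB2313. The part of these shifts in the values of the 10 genes was not tested.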

How the data were processed

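RNA-seq of 3 control and 3 DB2313 libraries was analyzed. The deposited values were unnormalized whole-number counts of reads for each gene, with 1 column for every library, beside the gene length. The submitters' processing notes name CASAVA 1.8, HISAT2 2.0.5 and featureCounts 1.5.0-p3, whereas the methods of the study name LifeScope for alignment and counting. The genome build and the use of strand are not given in the sources used here. Start and end were the same as in GENCODE M21 (GRCm38) for 98.33% of 54409 shared gene identifiers and for the 10 genes, so coordinates are given as GRCm38. Total counts were 16146743 to 19764677 per library.

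Groups came from the treatment in the labels, and columns were matched to them by name, as described above. Groups were compared in R 4.3.3 with glmQLFTest of edgeR 4.0.16 (two-sided), after filterByExpr and TMM scaling and with no covariate, and p-values were adjusted by Benjamini-Hochberg over 14174 genes, with a threshold of 0.05. The SE is the log2 fold change divided by the root of the test statistic. CPM used TMM-scaled library sizes, and RPKM divided these by the deposited length. The biological coefficient of variation was 9.66%. Errors cover the spread between libraries only, and reads carried no molecular identifiers.

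Alternatives were DESeq2 size factors, scaling by totals, no low-count filter, a minimum mean of 10 counts, DESeq2 1.42.0 (the tool of the study), voom of limma 3.58.1, a gene length offset (lowess with a span of 0.3), a block for the replicate number, the block with the offset, and the omission of each library. Copies were searched with blastn 2.17.0 among GENCODE M21 transcripts, with a minimum of 95% identity and 100 bp. The members, the lists of genes and the tests were chosen with earlier results of these data known. All 10 members were named. Of each list, up to 3 genes called higher and up to 3 called lower with the smallest adjusted p were named, with the ligands over 3 counts, Ifnar1, Ifnar2, Stat2, Irf9 and Irf7. The values of 1 further gene are not reported here. The remaining genes, Ifnb1, Uba7, Ifitm1, Ifit3b and the markers, were named after their values were seen. The labels gave no batch or date.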

Additional observations from a re-analysis of the deposited data

How the results depend on the processing

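Isg15 (log2 fold change 0.58 to 0.80), Rsad2 (0.60 to 0.73) and Cmpk2 (0.62 to 0.82) passed as higher in 15 of 15 alternatives, with edgeR, DESeq2 or limma adjusted p of at most 0.0218, 0.00721 and 0.00663. Ifitm3 passed in 9 of 15 (0.13 to 0.30), Usp18 as lower in 3 and Mx1 as lower in 1. Mx2 passed in none of the 15.

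The gene length offset gave 1 member lower (Usp18), a member median of 9.2e-04, and turned the sign of Bst2 (-0.0028), Ifitm2 (-0.073) and Herc6 (0.0047). With the replicate block and the length offset together, 1 member was lower (Usp18), the median was 6.4e-04, and Bst2, Ifitm2 and Herc6 stood at -0.0020, -0.073 and 0.0033. The cause was not tested. The replicate block alone gave 3 members higher and 0 lower, 502 and 629 of all genes, and Ifitm3 no longer passed (0.24, edgeR adjusted p = 0.120). The numbers share no source in the labels, and the deviations of same-numbered libraries correlated at 0.0035, -0.024 and -0.12, so the libraries were not treated as pairs.

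Leaving out 1 library at a time, 328 (without DB2313 replicate 2) to 1097 (without DB2313 replicate 3) genes were higher and 411 to 1311 lower. The number of members higher was 3 to 4, and that of members lower was 0 to 2, with 2 (Usp18 and Mx1) without DB2313 replicate 3. The member median was -0.0077 (without DB2313 replicate 1) to 0.13 (without DB2313 replicate 3). Ifitm2 ranged from -0.051 (without DB2313 replicate 1) to 0.12, and Herc6 from -0.12 to 0.017 (without DB2313 replicate 2). Without control replicate 1, 2 or 3, 361, 360 and 383 genes were higher and 485, 436 and 471 lower. No scaling moved the median of all genes by more than 0.024. With 97 to 160 counts a library, Mx2 had the widest 95% interval of the 10 genes, and a change in type I ligand RNA was not detectable at this depth.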
